A study of Mus musculus with 75 samples.

Results

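Total RNA was compared between CD4 effector T cells stimulated with anti-CD3/CD28 beads and CD4 effector T cells rested in IL7, both from RiboTag mice. The libraries were chosen by their labels: 5 Input libraries of stimulated cultures and 5 Input libraries of IL7 rest cultures, which are 10 of the 75 samples of the series. Input is the RNA of a culture before the tagged ribosomes are pulled down. Libraries with the same number came from the same mouse, so each of the 5 mice gave 1 stimulated and 1 rested library.

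All 10 libraries came from spleen and lymph node cells of the same genotype, the strain B6N.129-Rpl22tm1.1Psam/J crossed with B6.Cg-Tg(Cd4-cre)1Cwi/BfluJ. In this cross, Cre recombinase under the Cd4 promoter switches on a tagged form of the ribosomal protein Rpl22. By this label rested and stimulated cells carry the same alleles, leaving aside any cells of other mice that were added (below). The effector cells were sorted as CD4+CD25-. The sources used here do not give the age and sex of the mice, the hours of culture or the IL7 dose. Per the treatment protocol, some control cultures of the study were filled up with CD45.1+ effector cells of Foxp3 reporter mice, and the labels do not say whether these stimulated cultures were. The series is on how regulatory T cells act on translation during activation, and it also holds ribosome-bound RNA, cocultures with regulatory T cells, and a sucrose-gradient assay called SPEED. The stimulated (anti-CD3/CD28 beads) and untreated Input libraries of SPEED, from 4 mice labelled B6.SJL-PtprcaPepcb/BoyJ (C57/B6 in the text on the series), were used here as a second measurement of a stimulation response.

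Resting CD4 T cells are small, quiescent cells that IL7 keeps alive without driving them into division. Antibodies to CD3, a part of the T cell receptor, and to CD28, its main costimulatory receptor, stand in for antigen and its presenting cell. Such a signal is known to take T cells out of quiescence, to raise RNA and protein synthesis and to start the cell cycle. The deposited tables name genes by Ensembl identifiers alone, and the reference tables used here pair 0 of the 53465 identifiers with a symbol. Genes are therefore described as groups and by a few identifiers, without names or roles, and neither CD4 T cell markers, markers of other cell types nor Rpl22 itself could be checked.

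The stimulated libraries held 1658481 to 2689657 gene counts and the rested libraries 2035080 to 2208958. The highest gene of a library held 2425 to 2986 counts in stimulated and 2927 to 3321 counts in rested cells, which is 0.111% to 0.146% and 0.135% to 0.163% of the library. Rested libraries 1 and 2 stood apart from rested libraries 3 to 5. Across 9217 genes with a mean of at least 3 log2 CPM (CPM being counts scaled to a fixed library total), the log2 levels of a stimulated library correlated with rested libraries 1 and 2 at r = 0.721 to 0.745 and with rested libraries 3 to 5 at r = 0.646 to 0.691. Pairs of stimulated libraries correlated at 0.95 to 0.972 and pairs of rested libraries at 0.923 to 0.959. These correlations are across genes, which are not independent replicates.

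Most of the measured transcriptome differed between stimulated and IL7-rested cells, in both directions. Bead stimulation and IL7 rest make up the contrast together, so the part of each in a change cannot be told apart. The same holds for cells of reporter mice, if the stimulated cultures were filled up with them. Of 10751 genes left after the filter on low counts, 3435 were higher (32.0%) and 3375 lower (31.4%) in stimulated than in rested cells, together 63.3% of those tested. At least 2-fold changes were called for 1710 genes that rose (15.9%) and 1490 that fell (13.9%). A gene was called where the two-sided quasi-likelihood test of edgeR gave an adjusted p (Benjamini-Hochberg) under 0.05 (n = 5 mice a group). The fit took all 30 RiboTag libraries by group and counted libraries of the same mouse as separate. With mice 3 to 5 alone, 3515 genes were higher and 3158 lower, 1921 and 1565 of them at least 2-fold. With the mouse as a block in the fit, 3565 were higher and 3500 lower.

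The libraries themselves separated for many of these genes. In 2608 genes (24.3%) every stimulated library lay above every rested one, and in 2300 genes (21.4%) every stimulated library lay below. The change had the same sign in all 5 mice for 5981 of the 6810 genes called. The median log2 fold change was 0.99 among genes called higher and -0.91 among genes called lower, while over all tested genes it was -0.005. The median standard error of a log2 fold change was 0.188. Because levels are scaled to the total of a library, these are changes in the share of RNA, and a change in RNA per cell is not visible. In bulk samples fewer cells of a type and less RNA per cell cannot be told apart.

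Rises reached larger folds than falls. At least 8-fold changes numbered 492 rises and 89 falls, and at least 16-fold changes 312 rises and 22 falls. Part of this lay in genes with few or no counts in 1 condition: 1 tested gene had 0 counts in all 5 stimulated libraries, against 57 genes with 0 counts in all 5 rested libraries, 56 of which were called higher. A fold change of such a gene depends on the small count added by the fit. Such a gene passed the filter only through groups where it had counts, so these numbers and calls follow in part from the filter. The filter ran over 30 libraries, more of them stimulated than rested. Of 199 genes at least 32-fold higher, 143 had a count in at least 1 rested library. Among the 6945 better measured genes, at 5 log2 CPM or more on average, the order of the directions changed with the fold asked for. Of these, 2175 were higher and 2502 lower, and at least 2-fold changes were 640 rises and 835 falls. At 4-fold there were 147 rises and 106 falls, at 8-fold 62 rises and 10 falls, and at 16-fold 28 rises and 1 fall, the identifier ENSMUSG00000040229.

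Many calls were small, and a sizeable group of genes was held within narrow bounds. Among the genes called, 1600 changed by less than 1.5-fold. The 95% interval of the fold change lay wholly beyond 2-fold for 1069 rises and 652 falls. It lay inside 1.5-fold in either direction for 2146 genes (20% of those tested), and inside 1.2-fold for 177. Of the 3941 genes not called, a missed threshold alone does not show that their level was the same in stimulated and rested cells.

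The spread of the fold changes fell with the level of the gene, as the plot of fold change against level shows. These levels are log2 CPM, which are not set per transcript length. The SD of the log2 fold change across genes was 1.93 at a mean level of 3 to 4 log2 CPM and 0.537 in the 101 genes at 9 or above. The median standard error fell as well, from 0.356 to 0.0866, and its part in the narrower spread was not tested. Genes of low mean level can also pass the filter through the group where they are high, which favours large folds there. In those 101 genes, 12.9% were called higher and 54.5% lower, with a median log2 fold change of -0.294. The level of these genes also differed inside the stimulated group. Their median log2 CPM was lower by 0.288 in the deepest (mouse 5) than in the shallowest stimulated library (mouse 1). Each is a single library, so depth and mouse cannot be told apart. In the bins below 9 log2 CPM the same comparison gave -0.06 to 0.06. The part of depth in the excess of falls among the highest genes was not tested.

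**Figure D1:**
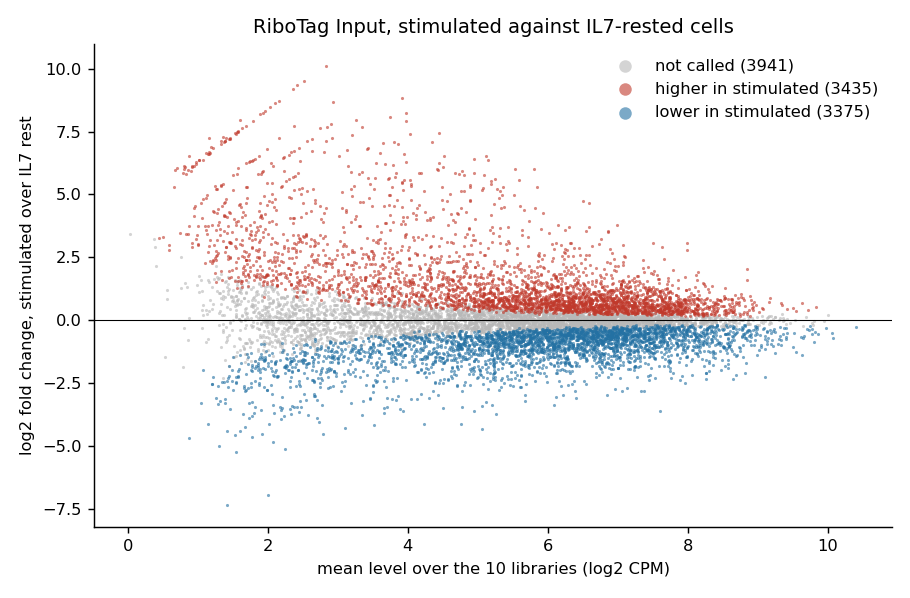
Each point is 1 of 10751 tested genes, with its mean level over the 10 Input libraries (log2 CPM) across and its log2 fold change, stimulated over IL7 rest, upwards. Red genes were called higher (3435), blue genes lower (3375) and grey genes neither (3941). The cloud narrows towards high levels, and the straight streaks at the upper left are genes with 0 or few counts in rested cells.

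Groups of genes were set against the summed counts of all tested genes. In the stimulated libraries of mice 1 to 5, the genes called at least 2-fold higher took 14.9%, 14.8%, 14.9%, 15.2% and 14.6%. In the rested libraries of the same mice they took 4.58%, 4.44%, 3.85%, 3.72% and 3.75%. The genes called at least 2-fold lower took 6.34%, 7.13%, 6.19%, 6.46% and 7.16% in stimulated libraries, against 16.6%, 16.8%, 18.1%, 19.2% and 19% in rested libraries. The genes were chosen on these libraries, so the shares describe the size of the change and test nothing. In rested cells, mice 1 and 2 had the highest shares in the genes that rise and the lowest in those that fall.

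By the rule used to single out genes (called, 5 log2 CPM or more on average, and of 1 sign in all mice), 1973 rises and 2194 falls qualified. The 12 largest rises had log2 fold changes of 5.24 to 6.54, with 177.4 to 616.9 CPM in every stimulated library and 0 to 29.9 CPM in every rested one. The 12 largest falls had -2.96 to -4.31, with 1.54 to 77.9 CPM in stimulated and 51.5 to 1225 CPM in rested libraries. The 2 largest of each are given by identifier, with the CPM of mice 1 to 5 in that order.

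The identifier ENSMUSG00000020897 had 350, 341, 297, 299 and 297 CPM in stimulated cells, against 1.86, 5.99, 3.81, 3.82 and 1.03 CPM in rested cells. All 5 stimulated libraries lay far above the rested ones, and the stimulated levels were within a narrow band while the rested levels rest on 2 to 13 counts. The means were 317 ± 26.3 and 3.3 ± 1.94 CPM (SD, n = 5 each), a log2 fold change of 6.54 (SE 0.23, adjusted p = 9.04e-21, edgeR).

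The identifier ENSMUSG00000053469 had 372, 321, 263, 270 and 251 CPM in stimulated cells, against 2.32, 5.07, 3.33, 3.82 and 3.08 CPM in rested cells. The groups did not overlap, and the stimulated libraries of mice 1 and 2 were the highest. The means were 295 ± 50.2 and 3.52 ± 1.02 CPM (SD, n = 5 each), a log2 fold change of 6.36 (SE 0.28, adjusted p = 6.99e-19, edgeR).

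The identifier ENSMUSG00000040229 had the largest fall among genes at 5 log2 CPM or more, with 10.3, 13.9, 7.26, 1.54 and 7.32 CPM in stimulated cells, against 251, 202, 127, 100 and 102 CPM in rested cells. Again no stimulated library reached a rested one, but the rested levels of mice 1 and 2 were above those of mice 3 to 5, and the stimulated level of mouse 4 rested on 4 counts. The means were 8.06 ± 4.54 and 156 ± 67.1 CPM (SD, n = 5 each), a log2 fold change of -4.31 (SE 0.52, adjusted p = 1.78e-08, edgeR).

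The identifier ENSMUSG00000066677 had 5.46, 14.3, 10.6, 10.8 and 10.2 CPM in stimulated cells, against 103, 107, 167, 134 and 183 CPM in rested cells. Here the rested levels of mice 1 and 2 were the lowest of the rested group. The means were 10.3 ± 3.16 and 139 ± 35.5 CPM (SD, n = 5 each), a log2 fold change of -3.73 (SE 0.25, adjusted p = 3.43e-14, edgeR). All 4 identifiers kept their direction and their call under each of 14 other settings. Their p-values above come from the fit of 30 libraries, which counts libraries of the same mouse as separate. In a fit of only the 10 libraries compared, with the mouse as a block, they were larger. The adjusted p was then 8.76e-09, 5.06e-09, 1.61e-07 and 1.5e-07 in the order named (edgeR). In the ribosome-bound RNA of the same cultures they averaged 377, 308, 5.05 and 9.63 CPM in stimulated cells, against 3.47, 5.15, 108 and 117 CPM in rested cells, in the order named here.

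**Figure D2:**
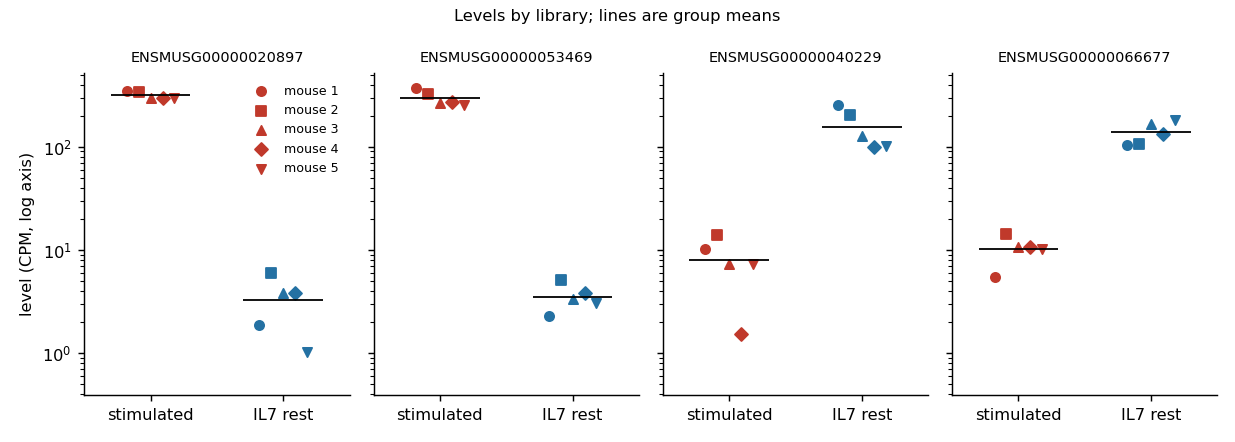
Levels of the 2 largest rises (left panels) and the 2 largest falls (right panels) in each Input library, in CPM on a log axis, with stimulated cells in red left of IL7-rested cells in blue. Symbols are mice and lines are group means (n = 5). In none of the 4 panels do stimulated and rested libraries overlap, and the lowest stimulated level of the third gene, 1.54 CPM, is mouse 4.

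The strength of the change differed between mice. Across 9217 genes with a mean of at least 3 log2 CPM, the log2 fold change of a mouse was set against the mean of the other 4 mice. The slope was 0.871 and 0.832 in mice 1 and 2, and 1.04, 1.07 and 0.987 in mice 3, 4 and 5. Among the genes called, the sign of a mouse matched the call in 95.6% and 95.9% of genes for mice 1 and 2, and in 98% to 98.9% for mice 3 to 5. The calls were made on these same libraries, so the match is a description and not a check. At least 2-fold differences within a mouse numbered 1133 to 1190 rises and 1032 to 1228 falls in mice 1 and 2, against 1405 to 1502 rises and 1339 to 1490 falls in mice 3 to 5. These counts have no test, since a mouse has 1 library a condition.

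By position between rest and stimulation, mice 1 and 2 stood apart from mice 3 to 5 in rested libraries and not in stimulated ones. Each library was placed on an axis drawn from the other 4 mice, over the 6928 to 6953 genes with a mean of at least 5 log2 CPM, where 0 is their mean rested and 1 their mean stimulated Input. The stimulated libraries lay at 1.02, 0.94, 1.04, 1.02 and 0.934. The rested libraries of mice 1 and 2 lay at 0.145 and 0.123, and those of mice 3, 4 and 5 at -0.0391, -0.0881 and -0.0593. Rested libraries 1 and 2 were thus shifted towards the stimulated profile, in genes that rise (0.107 and 0.111) as in genes that fall (0.158 and 0.115).

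Libraries made from the ribosome-bound RNA of the same cultures were placed on the same axis. Their stimulated libraries lay at 1.02 to 1.11. Their rested libraries lay at 0.169 and 0.182 in mice 1 and 2, and at 0.0122, -0.000519 and -0.000287 in mice 3 to 5. The shift of rested mice 1 and 2 was therefore present in 2 libraries of each culture. The axis was chosen after the libraries had been seen to differ, the split of the mice has no test, and what sets these cultures apart was not tested.

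**Figure D3:**
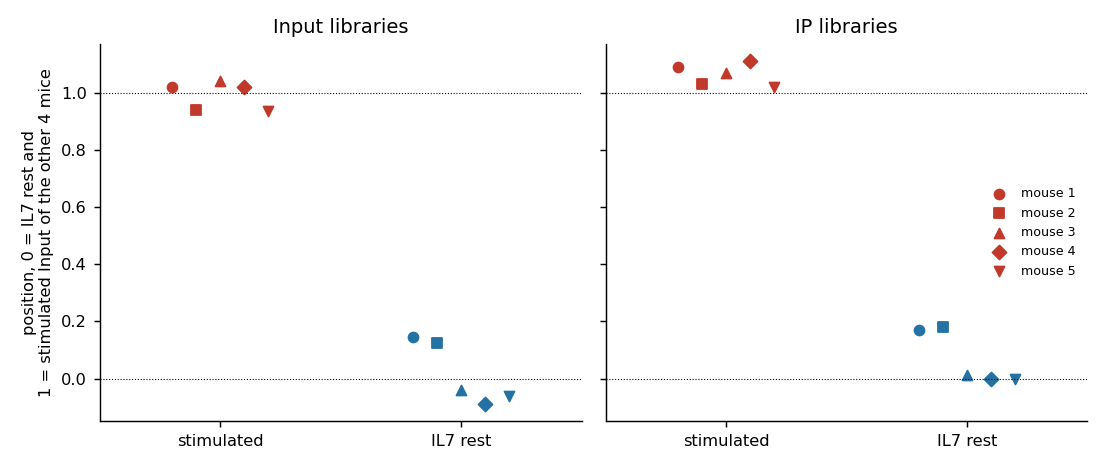
Position of each library between the mean rested (0) and the mean stimulated (1) Input profile of the other 4 mice, for Input (left panel) and ribosome-bound IP libraries (right panel), with stimulated cells in red left of IL7-rested cells in blue and symbols for mice. Rested libraries of mice 1 and 2 lie between 0.123 and 0.182, and those of mice 3 to 5 between -0.0881 and 0.0122.

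Rested libraries also varied more from each other than stimulated libraries. The median SD of a gene over libraries was 0.209 log2 CPM in stimulated and 0.268 in rested cells (9217 genes, 5 libraries each), and 64.8% of genes had the larger SD in rested cells. In mice 3 to 5 alone the medians were 0.153 in stimulated and 0.195 in rested cells, with 60% of genes more variable in rested cells.

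Stimulated cells spread their RNA over more genes. After each library was thinned to 1500000 counts, 13805 ± 101 genes had at least 1 count in stimulated cells and 12948 ± 229 in rested cells (SD, n = 5 each). The lowest stimulated library (13710 genes) was above the highest rested one (13256 genes). The effective number of genes, which is the number of equally abundant genes that would give the same Shannon entropy, was 6399 ± 132 in stimulated and 5956 ± 56.1 in rested cells. The 100 highest genes of a library held 6.93% ± 0.518 of the counts in stimulated and 8.13% ± 0.145 in rested cells. For these 3 measures the groups did not overlap, and each two-sided exact permutation test gave p = 0.00794 (adjusted p = 0.00794 over 3 tests), which is the lower limit for groups of 5. With labels swapped within mice only, which keeps the pairing, each p was 0.0625, the smallest that 5 mice can give in that exact test, so the 3 measures miss 0.05 with the pairing and could not have reached it. All 5 mice showed the same direction in each measure. The measures were chosen after the data had been seen.

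Depth moves with the last 2 of these measures. In the stimulated group, the shallowest library had 6200 effective genes and 7.73% in the top 100, and the deepest had 6549 and 6.38%. The stimulated libraries of mice 2 and 3, whose totals of 2147048 and 2054235 lie within the range of the rested libraries, had 6414 and 6358 effective genes and 7.06% and 6.89% in the top 100. Rested libraries had 5867 to 6005 effective genes and 7.95% to 8.27%. After thinning to 1500000 counts, stimulated libraries had 6389 ± 128 effective genes and 6.94% ± 0.512 in the top 100, and rested libraries 5946 ± 55.7 and 8.14% ± 0.144 (SD, n = 5 each). Thinning left the range within the stimulated group as it was (6196 to 6537 effective genes), so it does not take away what moves with depth there. The effective number is taken over all genes. The top 100 share rests on the highest genes, whose level was also lower in the deepest than in the shallowest stimulated library. Whether the deposited counts of those genes were limited by the removal of duplicate reads is not stated in the sources used here, and its part in both measures was not tested. In SPEED Input, 13469 ± 124 genes were detected in stimulated and 12701 ± 196 in untreated cells at the same thinned depth (SD, n = 4 each). The effective number there was 6429 ± 215 in stimulated and 6319 ± 92.8 in untreated cells, with overlapping libraries. In each of the 4 SPEED mice the stimulated library was the shallower, with totals of 2257220 to 3697133 against 3412403 to 4125314 in untreated cells. So these effective numbers were not taken at like depth. After thinning to 1500000 counts they were 6415 ± 213 in stimulated and 6300 ± 92.6 in untreated SPEED cells. The top 100 genes then held 6.6% ± 0.551 and 6.87% ± 0.302 (SD, n = 4 each). That share was lower in stimulated cells of all 4 mice, with overlapping groups.

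Cell cycle genes could be followed without names, through lists of Ensembl gene pairs that come with the scran package. Each pair holds 2 genes of which the first was the higher in cells of 1 phase, in single mouse embryonic stem cells. Pairs with equal counts in a library are left out. The share of the remaining pairs with the first gene higher is a summary of the order of genes within a library. It does not depend on scaling, and in bulk RNA it is not a share of cells in a phase. The pairs were taken up after the data had been seen, so the shares are given with no test.

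The pair shares differed between stimulated and rested libraries in all 3 phases. Over 12052 G1 pairs, the share was 36.4%, 34%, 38.6%, 37.4% and 36.4% in stimulated cells of mice 1 to 5, against 55.6%, 55.8%, 58.3%, 57.6% and 57.4% in rested cells. Over 9981 G2/M pairs, it was 50.9%, 53%, 48.6%, 50.1% and 50.5% in stimulated cells, against 39.1%, 39%, 37.5%, 37.3% and 37.7% in rested cells. Over 6459 S pairs the gap was smaller, with 57.8% to 58.9% in stimulated and 54% to 55.5% in rested cells. No stimulated library overlapped a rested one in any phase.

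Rested mice 1 and 2, which lay towards the stimulated profile, had the lowest G1 and the highest G2/M shares of the rested libraries. Their S shares went the other way: at 54.2% and 54% they were the lowest of the rested libraries, and the furthest from the stimulated ones. Stimulated mouse 2 had the lowest G1 share and the highest S and G2/M shares of its group. In SPEED Input, the G1 share was 38.6% ± 1.84 in stimulated and 57.3% ± 0.782 in untreated cells (SD, n = 4 each). The S share was 60.4% ± 0.467 in stimulated and 53.7% ± 0.627 in untreated cells, and the G2/M share 46.7% ± 1.97 in stimulated and 38.5% ± 0.637 in untreated cells.

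**Figure D4:**
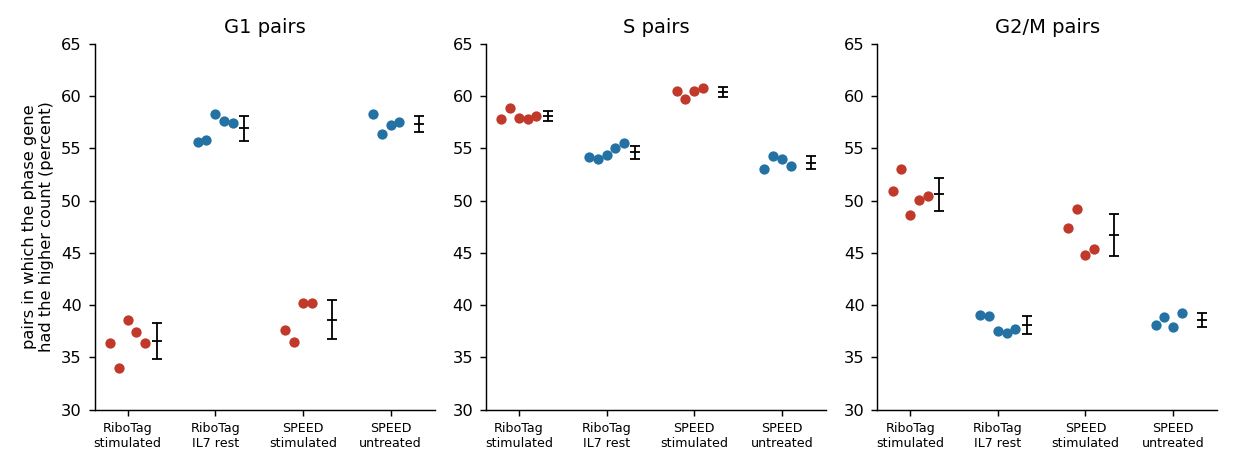
Share of marker pairs in which the gene of the named phase had the higher count (percent), for each library (points, mice in order) with mean and SD (bars), in RiboTag stimulated (n = 5), RiboTag IL7 rest (n = 5), SPEED stimulated (n = 4) and SPEED untreated (n = 4) Input. Stimulated libraries lie between 34% and 40.2% for G1 pairs, against 55.6% to 58.3% in rested or untreated libraries, and above the rested and untreated libraries for S and G2/M pairs. Pairs with equal counts in a library are left out. The axis starts at 30%.

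The genes behind these pairs did not move as 1 block. A list was drawn for each phase of the genes that are only ever the first partner in its pairs. Without genes on more than 1 list, these numbered 57 for G1, 101 for S and 53 for G2/M. Of these, 6, 9 and 3 were too low to be tested. Of the 50 G2/M genes tested, 28 were higher and 10 lower in stimulated cells, 24 and 4 of them at least 2-fold. Their median log2 fold change was 0.933, and their upper quartile 4.93. Of the 92 S genes tested, 40 were higher and 32 lower, with a median of 0.139. Of the 51 G1 genes tested, 24 were higher and 14 lower, with a median of 0.187. Over all tested genes 32.0% were higher and 31.4% lower, with a median of -0.005 and an upper quartile of 0.644.

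The summed level of the G2/M list was 7086, 7536, 6322, 6281 and 6285 CPM in stimulated cells of mice 1 to 5, against 3788, 4000, 3891, 3956 and 3843 CPM in rested cells. The stimulated levels were all above the rested ones, with mice 1 and 2 the highest of the stimulated group. The G1 list summed to 6285 to 6684 CPM in stimulated and 4903 to 5414 CPM in rested cells, also without overlap. The G1 genes thus summed higher in stimulated cells although the share of G1 pairs was lower there: a pair sets a gene against its partner and not against the library. For the S list the sums overlapped, with 11454 to 12598 CPM in stimulated and 10507 to 11749 CPM in rested cells. A sum is carried by the most abundant genes, so the median gene of a list was also taken per library. In proportion it gave a wider gap for the G2/M and S lists and a narrower one for the G1 list. For the G2/M list this median was 117 to 129 CPM in stimulated and 14.3 to 20.8 CPM in rested libraries. For the S list it was 87.7 to 92.4 CPM in stimulated and 59.3 to 74.2 CPM in rested libraries, and for the G1 list 73.1 to 87 CPM in stimulated and 64.2 to 72.8 CPM in rested libraries. By this median no stimulated library overlapped a rested one in any of the 3 lists. A first form of the lists, which also kept genes shared between phases, gave 55 higher and 15 lower of 97 for G2/M, 73 and 41 of 148 for S, and 34 and 22 of 77 for G1. It was replaced after these counts had been seen.

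Where the response of these cells differed from that of SPEED cells was tested as a difference of 2 differences, in one fit of 18 Input libraries. The response differed for 1619 of 10851 genes tested (14.9%; edgeR, adjusted p under 0.05). It was higher in RiboTag for 901 genes (8.30%) and lower for 718 (6.62%), and 881 differed at least 2-fold. Without the mice numbered 3 in both assays, 510 and 394 genes passed, and without the mice numbered 4, 528 and 364. With RiboTag mice 3 to 5 alone, 996 and 700 passed. The mice and their labelled strain, the culture of the unstimulated cells (IL7 rest or untreated), the tables and the sequencing runs differ together between the assays and cannot be told apart.

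Most of the differing genes were called the same way in both assays or called in 1 assay alone, and fewer were called in opposite directions. Among the 1619, 553 changed the same way in both assays, 288 of them by more in RiboTag and 265 by more in SPEED. A further 442 were called in RiboTag and not in SPEED, 445 in SPEED and not in RiboTag, and 11 in neither. Opposite changes, called in both assays, were seen for 168 genes, of which 121 were higher on stimulation in RiboTag and lower in SPEED, and 47 the reverse. Genes called in 1 assay alone can also have opposite signs, and these were not counted. For 5356 genes (49.4% of those tested) the 95% interval of the difference lay inside 2-fold. Over 9170 genes, the log2 fold changes of a SPEED mouse had a slope of 0.792 to 0.856 on the mean of the 5 RiboTag mice, with r = 0.744 to 0.775 and an SD across genes of 1.22 to 1.34. RiboTag mice set against the other 4 RiboTag mice had slopes of 0.832 to 1.06, r = 0.876 to 0.924 and SDs of 1.14 to 1.32. The spread of the response across genes overlapped between the assays, and the correlation was lower between assays than within RiboTag.

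The 4 identifiers given above did not all behave alike in SPEED. For ENSMUSG00000020897, SPEED libraries averaged 309 ± 28 CPM in stimulated and 1.7 ± 1.9 CPM in untreated cells (SD, n = 4 each), and the difference between the assays was not called (log2 -0.892, 95% interval -2.03 to 0.251, adjusted p = 0.307, edgeR). For ENSMUSG00000040229, SPEED libraries averaged 12.6 ± 3.1 CPM in stimulated and 8.15 ± 6.7 CPM in untreated cells. So the gene with the largest fall here among genes at 5 log2 CPM or more was low in both SPEED groups and was not called there (log2 fold change 0.63, adjusted p = 0.367). The difference between the assays was -4.93 on the log2 scale (SE 0.79, adjusted p = 0.000191, edgeR).

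The other pair differed between the assays in size alone. For ENSMUSG00000053469, SPEED libraries averaged 125 ± 18 CPM in stimulated and 0.283 ± 0.42 CPM in untreated cells, and the rise was smaller in RiboTag by a log2 difference of -2.32 (adjusted p = 0.0125, edgeR). This call was lost without the mice numbered 2 (adjusted p = 0.06) or 4 (0.0942), and the SPEED fold rests on very low untreated counts. For ENSMUSG00000066677, SPEED libraries averaged 37.4 ± 7.6 CPM in stimulated and 256 ± 42 CPM in untreated cells, and the fall was larger in RiboTag by -0.927 (adjusted p = 0.0405, edgeR). This call was lost without the mice numbered 3 (adjusted p = 0.176), 4 (0.151) or 5 (0.106).

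**Figure D5:**
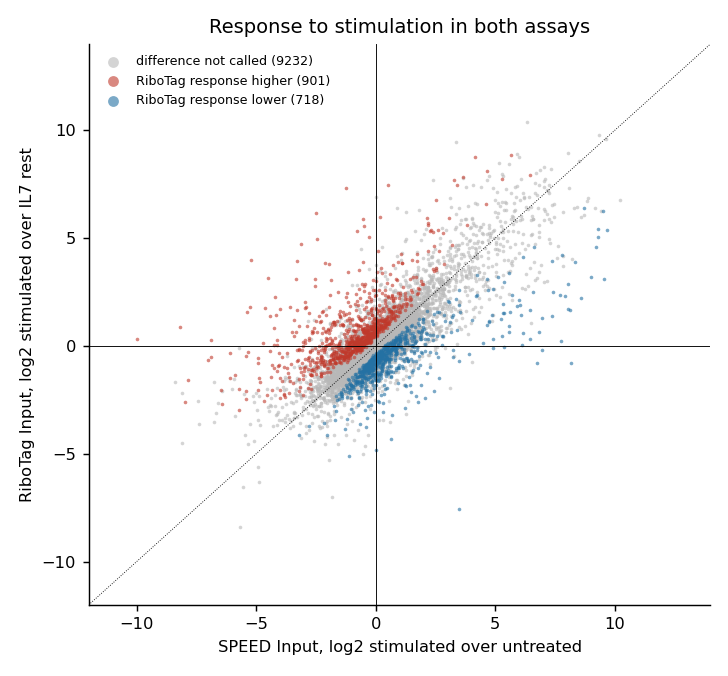
Each point is 1 of 10851 genes, with its log2 fold change in SPEED Input (stimulated over untreated, n = 4) across and in RiboTag Input (stimulated over IL7 rest, n = 5) upwards. The dotted line marks equal change. Red genes had a higher response in RiboTag (901), blue genes a lower one (718), and grey genes (9232) were not called different.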

How the data were processed

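The authors deposited a table of raw counts for each assay, whole-number counts of reads per Ensembl gene, with 53465 identifiers. Per the submitters' processing notes, the build was GRCm38 and the tools were HTSeq 0.4.1, Picard 1.134, FastQC 0.11.3 and SAMtools 1.2. The aligner, the setting of each tool and whether duplicate reads were removed are not stated in the sources used here. Libraries were made with the SMART-Seq v4 and NexteraXT kits, per the labels' protocols, which do not record strand, so reads of a gene and of an antisense partner over it cannot be told apart. In the RiboTag table, 16 more columns belong to no sample used here and were left out.

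The counts were tested with edgeR 4.0.16 under R 4.3.3, after filterByExpr (minimum count 10, minimum total 15), TMM scaling and a quasi-likelihood fit (robust) of the 30 RiboTag libraries in 6 groups (common biological coefficient of variation 0.188). A standard error is the log2 fold change divided by the root of its F statistic. Log2 CPM per library used a prior count of 2. DESeq2 1.42.0 was an alternative, and scran 1.30.0 supplied the marker pairs. The fits were tested on simulated data.

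The labels give the mouse of each library, so equal numbers are the same animal. The deviations of 2 libraries of a mouse from their group means correlated at r = 0.0304 to 0.162, against a mean of -0.0235 between mice. Over 20 pairs of libraries within a group, the chi-square divided by its degrees of freedom was 2.87 to 11.1, so none was counted as a copy. The libraries and lists were chosen with earlier results of these data known. Singled-out genes are the 12 largest rises and falls among called genes at 5 log2 CPM or more on average, with 1 sign in all mice. The planned gene lists, cell type markers and genes by symbol need names, and were not analysed here. The mice are separate animals, so the spread between libraries is biological and technical together. Intervals cover the fitted spread between libraries.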

Additional observations from a re-analysis of the deposited data

Results flagged for a closer look

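The share of S pairs in the stimulated library of mouse 2 was 58.9%, apart from the 57.8% to 58.1% of the other 4 stimulated libraries. It was found among 28 sets of values searched for a library far from the others, and chance alone flags about 1 in 20 such sets. The same library had the lowest G1 share and the highest G2/M share of its group.

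The response to stimulation differed between RiboTag Input and SPEED Input for 1619 genes by a test of the difference itself (edgeR, adjusted p under 0.05), 901 higher and 718 lower in RiboTag.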

How the results depend on the processing

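In the comparison of stimulated with rested cells, the numbers of genes called higher and lower, and of genes at least 2-fold higher and lower, stayed within 1.5 times their values under all 14 other settings. No gene called in both fits changed sign. The total called was 6031 to 7065 over those settings. DESeq2 called 6847, and no filter beyond 1 count gave 6933 of 23676 genes. With the mouse as a replicate block, 3565 genes were higher and 3500 lower in the fit of 30 libraries, and 3118 and 3122 in the fit of the 10 libraries. The block changed no call of a gene named here. With 1 mouse left out, 3146 to 3421 genes were higher and 2887 to 3212 lower, and 1642 to 1781 and 1352 to 1527 of them at least 2-fold.

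For the difference between the assays, the number of genes with a higher response in RiboTag was 510 to 763 with 1 mouse number left out, and with a lower response 364 to 634. It moved by over 1.5 times without the mice numbered 3 (510 and 394) or 4 (528 and 364), and the cause was not tested. DESeq2 gave 1916 genes, the replicate block within each assay gave 1433 (828 higher, 605 lower) and upper-quartile scaling 1613.

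With 1 mouse left out, the difference between stimulated and rested cells was 795 to 893 for genes detected, 384 to 505 for the effective number of genes and -1.39 to -1.03 percentage points for the top 100 genes (exact permutation p = 0.0286, the smallest that 4 against 4 can give). In an exact test with labels swapped within mice, as a replicate block, the differences of 857 genes detected, 443 effective genes and -1.2 points for the top 100 genes each had p = 0.0625, the smallest that 5 mice can give. With 1 mouse left out, the difference was -20.7 to -20 points for G1 pairs, 3.12 to 3.7 for S pairs and 12.1 to 12.8 for G2/M pairs. The settings of these library measures were added after the data had been seen. Genes with few counts in rested cells have folds that depth limits.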
